A study of Mus musculus with 14 samples.

Results

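Aquaporins are membrane channels through which water crosses the cell membrane along osmotic gradients, and the aquaglyceroporin branch of the family also carries glycerol. In the heart, Aqp1 is the water channel of the capillary endothelium, and it is also abundant in erythrocytes. Aqp4 is a water channel that the syntrophins of the dystrophin complex anchor in the membranes of muscle and of astrocytes, Aqp7 is an aquaglyceroporin known from adipocytes and muscle, and Aqp8 passes water and small solutes such as hydrogen peroxide and ammonia.

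These 4 genes were followed through 14 bulk RNA-seq libraries of female mouse hearts, as 4 of 42396 genes listed and 4 of the 12 aquaporin genes among them. The set was chosen by readout: Aqp4 was selected on the size of its increase in the comparison of the 2 adeno-associated virus (AAV) groups, and Aqp1, Aqp7 and Aqp8 were taken as the other aquaporins of the heart. The values of these genes in the AAV comparison are therefore given as a description, with no p. Their test results are given only for the knockout comparison, whose values the selection rule did not use. Earlier results of these data were known when the set was chosen, so these tests are not fully independent of the choice.

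An aquaporin pore is typically lined by a pair of Asn-Pro-Ala signatures, and in Aqp7 both depart from that form. The codons of the pair are shown in capitals, from the GENCODE vM21 transcripts, with the residue at which each starts. They set Aqp7 beside Aqp1 and Aqp8, and Aqp4 is not shown. What sets the passage of glycerol is not read from them.
Aqp1 residue 76, Asn-Pro-Ala: gctcacctcAACCCTGCGgtcacactg
Aqp1 residue 192, Asn-Pro-Ala: tgcggtatcAACCCTGCCcggtcattt
Aqp8 residue 91, Asn-Pro-Ala: ggacacttcAACCCTGCTgtgtcgctg
Aqp8 residue 209, Asn-Pro-Ala: gcctgcatgAACCCTGCTcgtgccttt
Aqp7 residue 79, Asn-Ala-Ala: gcccacatgAATGCCGCAgtgactttc
Aqp7 residue 211, Asn-Pro-Ser: tatgcaatcAACCCATCCcgtgacctg

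All mice were FS6KD animals, which carry a gene trap in Ndufs6, a subunit of respiratory complex I, and lose that subunit mainly in the heart; they are a model of mitochondrial cardiomyopathy on a mixed C57BL/6J and 129/Ola background. The knockout experiment held 4 libraries labelled Atf3+/+FS6KD and 4 labelled Atf3-/-FS6KD, from hearts taken at 12 weeks; the Atf3 deletion was made with CRISPR-Cas9 and spans exons of the transcription factor gene Atf3. The AAV experiment held 3 libraries labelled MyoAAV2-shCtrl and 3 labelled MyoAAV2-shAtf3, from FS6KD mice given a muscle-directed AAV with a control or an Atf3 short hairpin RNA as neonates; the age at which these hearts were taken was not given. The question behind both experiments was what the loss of Atf3 changes in hearts with a complex I defect.

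Each library came from a heart of its own and held between 30.1 and 134.9 M (mega) counts, and in the knockout experiment replicates 1 and 2 of both genotypes (33.9 to 42.4 M) were shallower than replicates 3 and 4 (112.9 to 134.9 M). In the AAV experiment depth went with the groups, at 38.1 to 40.5 M in the libraries labelled shCtrl and 30.1 to 34.4 M in those labelled shAtf3, without overlap. The targeted gene did not follow the labels. Atf3 was at 25.7, 6.89, 6.90 and 6.35 CPM (counts scaled to library size with TMM factors) in the libraries labelled Atf3+/+FS6KD and at 25.5, 37.6, 22.7 and 14.3 CPM in those labelled Atf3-/-FS6KD, a log2 fold change of 1.14 (SE 0.49, edgeR adjusted p 0.480), and the count takes in any exon that the deletion leaves. It stood at 10.1 to 14.1 CPM in the libraries labelled shCtrl and 12.1 to 21.2 CPM in those labelled shAtf3, and in the AAV table the column names pair the 2 hairpins with the opposite samples from the titles. Every direction below therefore rests on the labels of the titles. The libraries are labelled as heart, and the 8 cardiomyocyte markers together took 61499 to 86819 CPM. Of the 5 atrial markers, Myl7, Sln and Bmp10 reached no more than 0.386, 0.0847 and 0.262 CPM in any library and Myl4 was at 1.66 to 2.99 CPM. The remaining one, Nppa, a natriuretic peptide gene that stressed ventricles also express, was at 253 to 784 CPM. Its log2 fold change was -0.15 (SE 0.24) in the knockout and -1.06 (SE 0.34) in the AAV comparison, with overlapping groups and no call by the main edgeR fit in either.

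The genes lie apart on GRCm38 in the GENCODE vM21 annotation. Aqp1 is on chromosome 6 at 55336432 to 55348555 on the plus strand with 2.63 kb of exon, Aqp4 on chromosome 18 at 15389496 to 15410982 on the minus strand with 6.23 kb, Aqp7 on chromosome 4 at 41033074 to 41048139 on the minus strand with 2.83 kb, and Aqp8 on chromosome 7 at 123462291 to 123468004 on the plus strand with 1.58 kb. The span of Aqp4 overlaps that of the long noncoding RNA A830021F12Rik, which was at no more than 2 counts in any library. All counts of Aqp7 and some of Aqp4 were not whole, and how the reads of such counts were shared among features was not stated.

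Aqp1 was by far the most abundant aquaporin transcript of these hearts. Divided by exon length, its level was 209 ± 15.9 CPM per kb (SD, n = 4) in the libraries labelled Atf3+/+FS6KD and 249 ± 53.2 CPM per kb (SD, n = 3) in those labelled shCtrl, and it made up 91.9% to 96.6% of the summed length-scaled level of the 12 genes in every library. Aqp7 and Aqp8 came next and could not be ordered. Aqp7 was at 6.70 ± 1.75 and Aqp8 at 4.32 ± 2.46 CPM per kb in the libraries labelled Atf3+/+FS6KD (SD, n = 4 each), with overlapping ranges, and in those labelled Atf3-/-FS6KD Aqp8 had the higher mean, 7.58 ± 0.614 against 6.59 ± 1.98 CPM per kb (SD, n = 4 each), again with overlap. The ratio of Aqp7 to Aqp8 on this scale ran from 0.511 to 3.36 over the 14 libraries.

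Aqp4 had rank 4 in all 4 groups, at 0.466 ± 0.232 CPM per kb in the libraries labelled Atf3+/+FS6KD, 0.145 ± 0.0410 in those labelled Atf3-/-FS6KD (SD, n = 4 each), 0.268 ± 0.0265 in those labelled shCtrl and 0.613 ± 0.0523 in those labelled shAtf3 (SD, n = 3 each). Its level per kb was below that of Aqp8 in every library, by a ratio of 2.64 to 91.6. The gap to the fifth gene was less firm. Aqp11, an intracellular aquaporin, was at 0.138 ± 0.0175 CPM per kb in the libraries labelled Atf3+/+FS6KD and 0.104 ± 0.0203 in those labelled Atf3-/-FS6KD (SD, n = 4 each), where its range overlapped that of Aqp4. In the other 3 groups the ranges of Aqp4 and Aqp11 did not overlap on this scale. For the libraries labelled Atf3+/+FS6KD this depends on the length used, 9.42 kb of exon for Aqp11 against 5.80 kb in its longest transcript. Without division by length, Aqp4 of replicate 3 was at 1.03 CPM, below Aqp11 at 1.35 CPM in the same library.

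The remaining 7 aquaporins were close to the limit of detection. Aqp6, an intracellular aquaporin known from the kidney, was at 2.07 to 19.1 counts per library, and Aqp2, the vasopressin-regulated channel of the kidney collecting duct, was at 0 to 20.5. Aqp3, Aqp5, Aqp9 and the lens protein gene Mip had at most 15, 2, 7 and 4 counts, and Aqp12 had none in any library. None of these 7 passed the filter of more than 1 CPM in at least 1 library of an experiment, so only the 4 members and Aqp11 entered the tests.

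**Figure D1:**
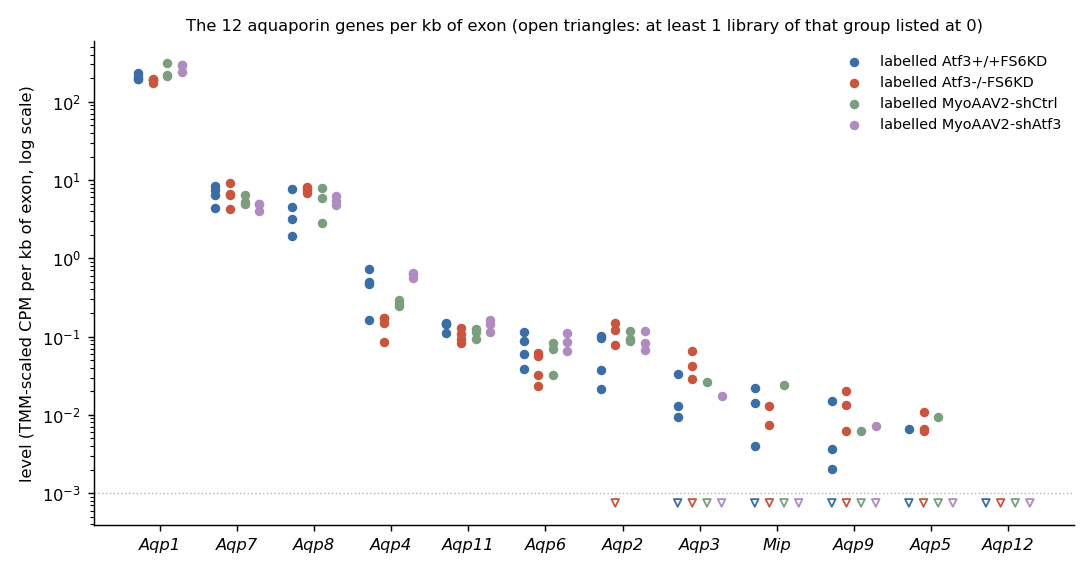
Level of each of the 12 aquaporin genes in TMM-scaled CPM per kb of exon (y axis, log scale) in the 14 heart libraries, coloured by the group on the label; open triangles mark a group with at least 1 library at 0. Aqp1 stands alone near 200 to 300 CPM per kb, Aqp7 and Aqp8 overlap below 10, and Aqp4 lies near or above Aqp11.

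Aqp4 had the largest fitted change of the 4 genes in both comparisons, and by the titles in opposite directions; by the column names of the AAV table its change there would turn and both would be decreases. In the knockout comparison Aqp4 was at 2.96, 4.55, 1.03 and 3.08 CPM in the libraries labelled Atf3+/+FS6KD and at 1.07, 0.918, 1.08 and 0.535 CPM in those labelled Atf3-/-FS6KD. Of the Atf3+/+FS6KD libraries 3 lay above all 4 of the other genotype, and the remaining one, replicate 3, lay among them. The group means were 2.90 ± 1.45 and 0.902 ± 0.256 CPM (SD, n = 4 each), a fitted log2 fold change of -1.68 (SE 0.43). This was the decrease of rank 29 by size among the 15592 genes tested. The unadjusted p was 0.00322 and the p adjusted over all genes was 0.317 in edgeR's quasi-likelihood test, so Aqp4 did not pass the threshold of 0.05.

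No gene passed that threshold in the knockout comparison, so the share called among all genes was 0% and the count among the members, 0 of 4, could not exceed it. At an unadjusted p below 0.05, 2 of the 4 members, Aqp4 and Aqp8, were reached, against 10.1% of all genes tested. DESeq2 called 1 of the 4, Aqp4 (log2 fold change -1.69, adjusted p = 0.00991), among 208 genes or 1.33% of those tested, and limma called 0 of the 4 and no other gene. None of the 4 members had groups that did not overlap, against 5.71% of all genes.

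The Aqp4 counts behind these values were small, 35.0 to 408.0 per library, yet the library that broke the pattern was not poorly counted. Replicate 3 labelled Atf3+/+FS6KD rested on 120.0 counts, with an exact 95% Poisson interval of 0.850 to 1.23 CPM, and this interval lay below those of the other Atf3+/+FS6KD libraries, the lowest of which began at 2.45 CPM. The intervals cover counting error only. Leaving that library out gave Aqp4 a log2 fold change of -1.98 (SE 0.28), still short of the threshold at an edgeR adjusted p of 0.165. Without replicate 1 labelled Atf3+/+FS6KD, whose Atf3 level resembled that of the other genotype, the change was -1.67 (SE 0.48). Within the shallower replicates 1 and 2 it was -1.91 (SE 0.31) and within the deeper replicates 3 and 4 it was -1.35 (SE 0.64), lower in both.

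In the AAV comparison Aqp4 was at 1.62, 1.86 and 1.54 CPM in the libraries labelled shCtrl and at 3.91, 4.10 and 3.46 CPM in those labelled shAtf3. All 3 libraries labelled shAtf3 lay above all 3 labelled shCtrl. The means were 1.67 ± 0.165 and 3.82 ± 0.326 CPM (SD, n = 3 each), a log2 fold change of 1.19 (SE 0.14). These are the values on which Aqp4 was selected: it ranked 10 by size of increase among 15225 genes fitted. In this comparison 0.539% of all genes passed in edgeR, 2.02% in DESeq2 and 0.558% in limma, and 18.4% had groups that did not overlap, as 1 of the 4 members, Aqp4, did. The counts behind Aqp4 were 59.0 to 132.0 per library, higher in each of the shallower libraries labelled shAtf3 than in any labelled shCtrl.

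**Figure D2:**
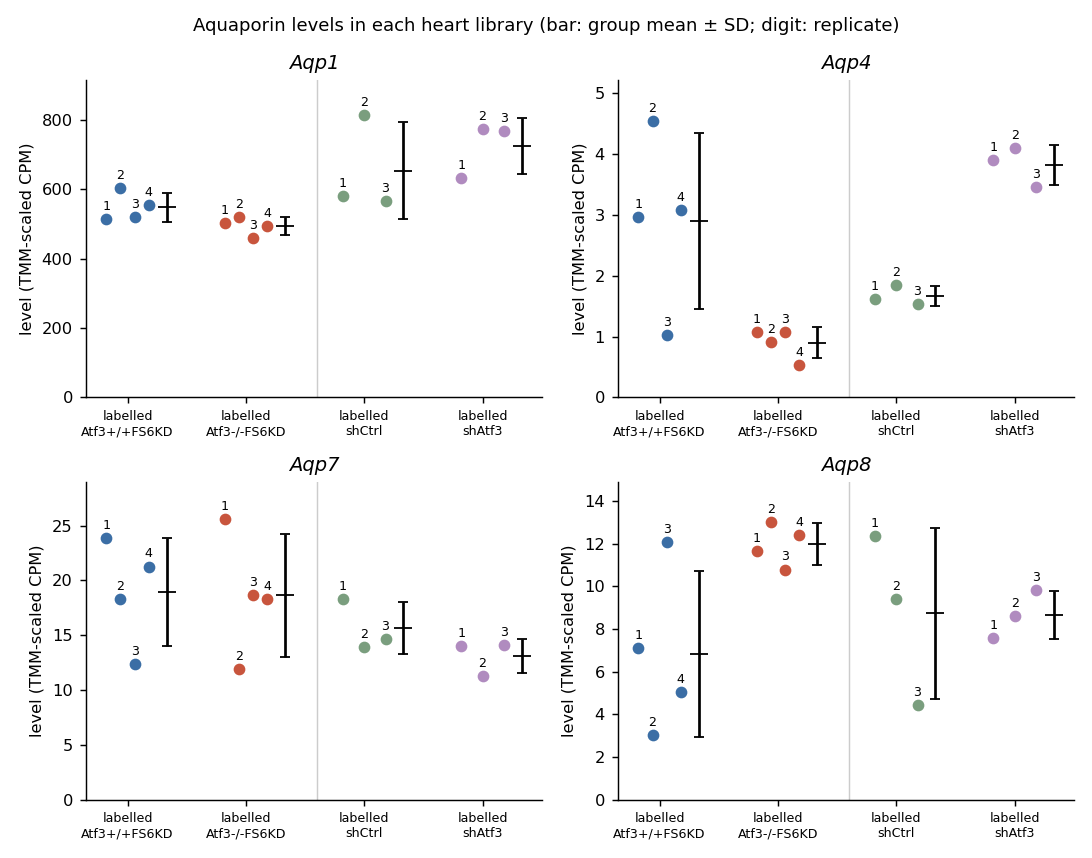
TMM-scaled CPM (y axis, from 0) of Aqp1, Aqp4, Aqp7 and Aqp8 in each of the 14 libraries (points, numbered by replicate) with the group mean and SD beside them; a grey line parts the knockout experiment from the AAV experiment. Aqp4 separates the AAV groups and, but for replicate 3 labelled Atf3+/+FS6KD at 1.03 CPM, the knockout groups; Aqp8 shows the same replicate at 12.1 CPM beside the libraries labelled Atf3-/-FS6KD.

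Aqp8 was the member with the next largest change in the knockout comparison, and it pointed the other way from Aqp4. It was at 7.09, 3.04, 12.1 and 5.06 CPM in the libraries labelled Atf3+/+FS6KD and at 11.7, 13.0, 10.8 and 12.4 CPM in those labelled Atf3-/-FS6KD. Again replicate 3 labelled Atf3+/+FS6KD lay among the other genotype, and the other 3 lay below it. The means were 6.82 ± 3.89 and 12.0 ± 0.971 CPM (SD, n = 4 each), a log2 fold change of 0.79 (SE 0.34). The difference did not pass the threshold, at an adjusted p of 0.476 by edgeR and 0.251 by DESeq2. The fitted change was 1.28 (SE 0.39) within replicates 1 and 2 and 0.44 (SE 0.42) within replicates 3 and 4. Without replicate 3 labelled Atf3+/+FS6KD it was 1.23 (SE 0.24, adjusted p 0.273 in edgeR), so this library alone moved the estimate by more than its standard error.

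Across the 8 knockout libraries Aqp4 and Aqp8 ran opposite to each other, a relation noticed after their values were seen. The 3 libraries with Aqp4 from 2.96 CPM upward had Aqp8 from 3.04 to 7.09 CPM, and the 5 with Aqp4 up to 1.08 CPM had Aqp8 from 10.8 to 13.0 CPM. Within the 4 libraries labelled Atf3+/+FS6KD the order of Aqp4 was exactly the reverse of that of Aqp8. As the libraries fell into separate clusters, no correlation over them is given. The AAV libraries did not repeat this arrangement. Aqp8 was at 12.4, 9.40 and 4.43 CPM in those labelled shCtrl and at 7.58, 8.61 and 9.81 CPM in those labelled shAtf3, means of 8.73 ± 4.01 and 8.66 ± 1.12 CPM (SD, n = 3 each) and a log2 fold change of -0.02 (SE 0.30), although Aqp4 separated the same groups. Leaving out single libraries moved this Aqp8 change between -0.33 (without replicate 3 labelled shCtrl) and 0.32 (without replicate 1 labelled shCtrl).

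**Figure D3:**
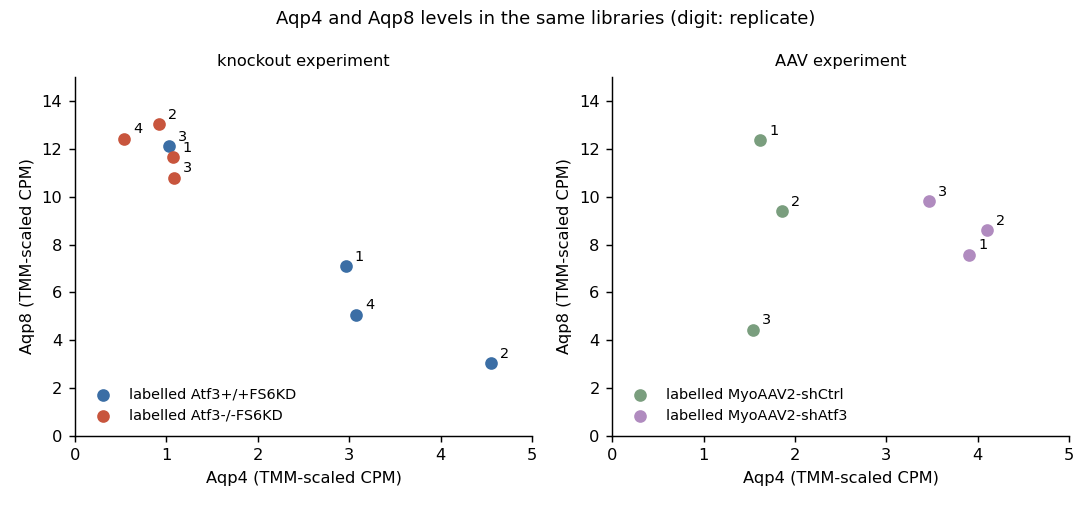
Aqp8 (y axis) against Aqp4 (x axis), both in TMM-scaled CPM, for the 8 knockout libraries on the left and the 6 AAV libraries on the right, numbered by replicate and coloured by the group on the label. On the left the 5 libraries with Aqp4 up to 1.08 CPM all have Aqp8 at 10.8 CPM or more; on the right Aqp8 of the libraries labelled shAtf3, 7.58 to 9.81 CPM, lies inside the range of those labelled shCtrl.

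Aqp1, the abundant endothelial channel, differed little. It was at 513, 604, 519 and 555 CPM in the libraries labelled Atf3+/+FS6KD and at 503, 520, 460 and 495 CPM in those labelled Atf3-/-FS6KD. The 2 ranges overlapped, the log2 fold change was -0.15 (SE 0.07), and the adjusted p was 0.510 in edgeR, with an approximate 95% interval of the change from -0.28 to -0.01. In the AAV libraries Aqp1 was at 579, 814 and 566 CPM in those labelled shCtrl and at 631, 772 and 768 CPM in those labelled shAtf3, a log2 fold change of 0.15 (SE 0.14) with overlapping groups. The libraries are bulk tissue, in which fewer cells of a type and less RNA per cell cannot be told apart. The sums of the 10 endothelial markers overlapped between groups: together they took 953 to 1163 CPM in the libraries labelled Atf3+/+FS6KD against 1048 to 1193 CPM in those labelled Atf3-/-FS6KD, and 943 to 1032 CPM labelled shCtrl against 955 to 1062 CPM labelled shAtf3. By gene, 9 of 10 knockout estimates were above 0 (median 0.11), opposite to Aqp1, with 0 called by edgeR, DESeq2 or limma. At an unadjusted p below 0.05 there were 3 of 10 against 10.1% of all genes, Esam (0.16, SE 0.06) and Egfl7 (0.19, SE 0.07) above 0 and Vwf (-0.19, SE 0.08) below, and 1 of 10, Esam, had no overlap, against 5.71% of all genes. The AAV median was 0.02, with 0 of 10 at such a p. The 7 erythrocyte markers took 273 to 470, 246 to 398, 325 to 752 and 288 to 654 CPM in the same 4 groups in that order, with all 5 tested estimates below 0 in the knockout (median -0.20) and above 0 in the AAV comparison (median 0.04), none at an unadjusted p below 0.05. The part of either cell type in the Aqp1 level was not tested.

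Aqp7, the glycerol channel, had nearly equal means in both genotypes. It was at 23.9, 18.3, 12.4 and 21.3 CPM in the libraries labelled Atf3+/+FS6KD and at 25.6, 11.9, 18.7 and 18.3 CPM in those labelled Atf3-/-FS6KD. Both groups spanned nearly the same range, the log2 fold change was -0.02 (SE 0.25, adjusted p 0.984 in edgeR), and the approximate 95% interval, -0.50 to 0.46, leaves room for changes of that size either way. In the AAV libraries it was at 18.3, 13.9 and 14.7 CPM labelled shCtrl and at 13.97, 11.3 and 14.1 CPM labelled shAtf3, with overlap and a log2 fold change of -0.25 (SE 0.13). Aqp7 is also an adipocyte gene, and the defining adipocyte marker Adipoq stayed between 0 and 0.196 CPM in all libraries. The 6 adipocyte markers together were at 0.738 to 1.297 CPM labelled Atf3+/+FS6KD, 0.236 to 2.14 CPM labelled Atf3-/-FS6KD, 0.217 to 1.75 CPM labelled shCtrl and 0.238 to 0.640 CPM labelled shAtf3. Only Cfd, which encodes adipsin, passed the filter, at up to 1.48 CPM; its log2 fold change was 0.17 (SE 0.54) in the knockout and -2.0 (SE 0.69, edgeR adjusted p 0.273) in the AAV comparison, the latter with the same sign as that of Aqp7 and with overlapping groups. The part of adipocyte RNA in the Aqp7 values was not tested.

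Aqp11, the only other aquaporin that could be tested, passed the threshold in neither comparison. Its log2 fold change was -0.39 (SE 0.19, adjusted p 0.534) in the knockout comparison and 0.37 (SE 0.21, adjusted p 0.518) in the AAV comparison, both from edgeR, with overlapping groups in both. DESeq2 and limma called it in neither comparison, and its unadjusted p was above 0.05 in both. Side by side, the changes of the knockout and the AAV comparison were -1.68 and 1.19 for Aqp4, -0.39 and 0.37 for Aqp11, -0.15 and 0.15 for Aqp1, 0.79 and -0.02 for Aqp8, and -0.02 and -0.25 for Aqp7. The signs of the AAV values follow the titles, and every one of them turns if the column names hold. The difference between the comparisons was not tested, since one of them chose the members.

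**Figure D4:**
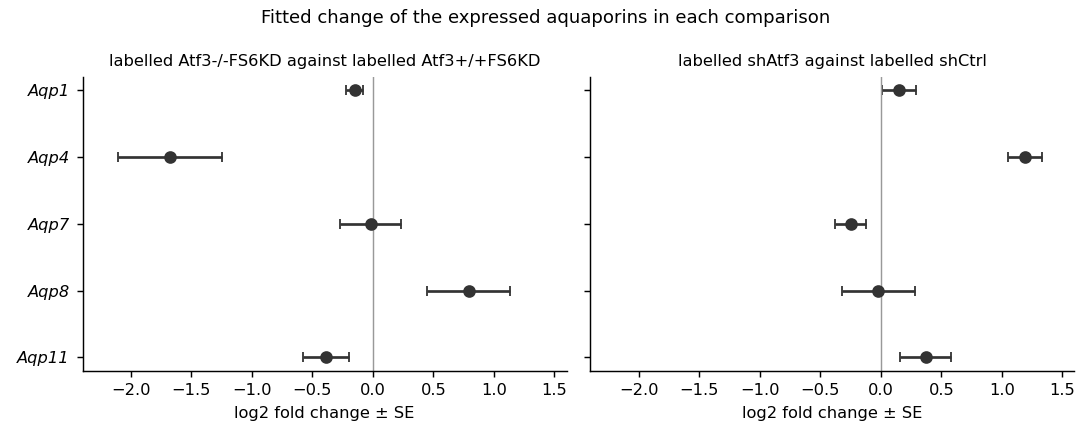
Fitted log2 fold change with its standard error (x axis) of the 4 members and Aqp11 (y axis) in the knockout comparison on the left and the AAV comparison on the right, by the groups of the titles. Aqp4 lies at -1.68 on the left and 1.19 on the right, and the other genes lie within 0.79 of 0.

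The partners of each channel were followed in 3 lists. The first was the dystrophin complex, the membrane scaffold whose syntrophins anchor Aqp4. In the knockout comparison all 15 of its genes were tested, 0 passed the adjusted threshold in edgeR or limma, 3 reached an unadjusted p below 0.05 (all lower) against 10.1% of all genes, and DESeq2 called 2, Dmd and Sgcd, against 1.33%. The median log2 fold change was -0.11, beside 0.001 over all genes tested, and 13 of the 15 estimates were below 0. Sgcd, which encodes delta-sarcoglycan, was at 251 ± 5.85 CPM in the libraries labelled Atf3+/+FS6KD and 215 ± 7.29 CPM in those labelled Atf3-/-FS6KD (SD, n = 4 each; log2 fold change -0.22, SE 0.05). Dmd, which encodes dystrophin, was at 212 ± 21.0 and 168 ± 12.5 CPM (log2 fold change -0.33, SE 0.08), and its homologue Utrn was at 148 ± 1.27 and 133 ± 6.004 CPM (log2 fold change -0.15, SE 0.05; SD, n = 4 each). In these 3 of 15 genes the genotypes did not overlap, against 5.71% of all genes.

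In the AAV comparison the same list had a median of 0.06 beside -0.003 over all genes, with 0 of 15 called by edgeR, DESeq2 or limma and 3 at an unadjusted p below 0.05, all higher in the libraries labelled shAtf3; 12.7% of all genes reached that p. Nos1, the neuronal nitric oxide synthase that binds the syntrophins, was at 5.48 ± 1.44 CPM in the libraries labelled shCtrl and 11.8 ± 4.23 CPM in those labelled shAtf3 (SD, n = 3 each). Its log2 fold change of 1.09 (SE 0.27) had an edgeR adjusted p of 0.161. The dystrobrevin gene Dtna (0.22, SE 0.07) and the syntrophin gene Sntb1 (0.24, SE 0.08) had smaller estimates. In each of these 3 of 15 genes the groups did not overlap, a share near the 18.4% of all genes, so nothing is read from it.

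The second list held 15 measured genes of glycerol and triacylglycerol metabolism, which Aqp7 serves as a glycerol channel. In the knockout comparison 0 of 15 were called by edgeR, DESeq2 or limma, 3 had an unadjusted p below 0.05 (all lower) against 10.1% of all genes, and the median was -0.09. The 3 were Lpl, the lipoprotein lipase (log2 fold change -0.18, SE 0.06), Dgat2, a diacylglycerol acyltransferase (-0.27, SE 0.09), and Gpd1l, a glycerol-3-phosphate dehydrogenase homologue (-0.18, SE 0.07). In the AAV comparison 0 were called by edgeR or limma, 2 by DESeq2 (2.02% of all genes) and 2 had an unadjusted p below 0.05, with a median of 0.12. The latter count is near the 12.7% of all genes and is no result about the list. The 2 were Gpam, which acylates glycerol-3-phosphate, at 390 ± 14.1 and 486 ± 43.5 CPM (0.32, SE 0.07), and Gpd1, the cytosolic glycerol-3-phosphate dehydrogenase, at 98.1 ± 18.5 and 138 ± 25.7 CPM (0.49, SE 0.16; SD, n = 3 each). Glycerol kinase, Gk, had an estimate of 0.21 (SE 0.11).

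The third list held 21 genes of cell volume and osmolyte control. It had a median of 0.00 in the knockout comparison, with 0 genes called by edgeR or limma, 1 by DESeq2 (1.33% of all genes) and 1 at an unadjusted p below 0.05 (10.1% of all genes). Lrrc8b, a volume-regulated anion channel subunit, had a log2 fold change of 0.18 (SE 0.08) and the taurine transporter Slc6a6 one of -0.23 (SE 0.12), neither past that unadjusted threshold. In the AAV comparison the median was -0.02, 0 genes were called by edgeR, DESeq2 or limma and 2 had an unadjusted p below 0.05, Lrrc8b (-0.29, SE 0.10) and the aldose reductase gene Akr1b3 (0.18, SE 0.06); the sodium pump subunit Atp1b1 followed (0.23, SE 0.11). This count too is near the 12.7% of all genes.

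**Figure D5:**
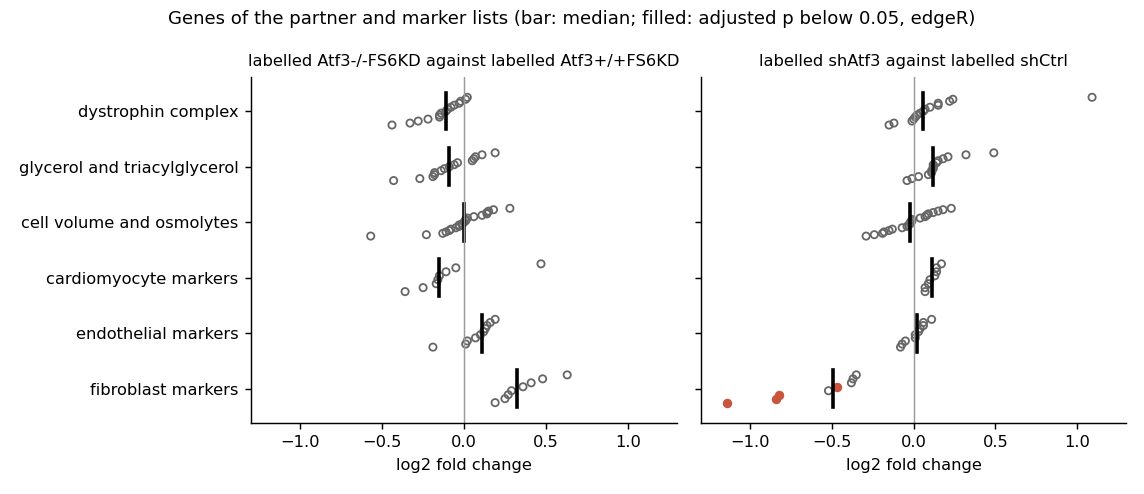
Fitted log2 fold change (x axis) of every tested gene of 3 partner lists and 3 cell type marker lists (rows) in the knockout comparison on the left and the AAV comparison on the right; bars mark list medians and filled points pass an adjusted p of 0.05 in edgeR. Only fibroblast markers of the AAV comparison hold filled points, and the dystrophin list leans to -0.11 on the left and 0.06 on the right.

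Markers of other heart cells were followed beside Aqp4. In the AAV comparison 4 of 8 fibroblast markers passed the adjusted threshold in edgeR, all lower, against 0.539% of all genes, 4 in limma against 0.558% and 7 in DESeq2 against 2.02%, and none was at 0; in edgeR 0 of 8 passed without replicate 2 labelled shCtrl or without any single library labelled shAtf3, and 7 without replicate 3 labelled shCtrl. Their summed level was 1979 to 2581 CPM in the libraries labelled shCtrl and 1510 to 1659 CPM in those labelled shAtf3, without overlap, while Aqp4 was higher in the latter. Those with the smallest p were Col1a2 (log2 fold change -0.82, SE 0.11, adjusted p 0.0293), Col1a1 (-0.84, SE 0.11, adjusted p 0.0293) and Postn (-1.14, SE 0.16, adjusted p 0.0299), all genes of the fibroblast matrix. In the knockout comparison the same sum was 1485 to 1823 CPM in the libraries labelled Atf3+/+FS6KD and 1677 to 2332 CPM in those labelled Atf3-/-FS6KD, with 0 of 8 markers called by edgeR or limma, 2 by DESeq2 (1.33% of all genes) and 6 at an unadjusted p below 0.05, all higher, against 10.1% of all genes. Replicate 3 labelled Atf3+/+FS6KD, the library low in Aqp4, had the highest sum of its group, 1823 CPM. The part of fibroblast RNA in the Aqp4 values was not tested.

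The 8 cardiomyocyte markers took 70621 to 86819 CPM in the libraries labelled Atf3+/+FS6KD, 61499 to 79569 CPM in those labelled Atf3-/-FS6KD, 65953 to 74447 CPM labelled shCtrl and 71977 to 77564 CPM labelled shAtf3, with overlap in both comparisons. Their single estimates leaned the same way as Aqp4: 7 of 8 were below 0 in the knockout comparison (median -0.16) and 8 of 8 above 0 in the AAV comparison (median 0.12), with none called by edgeR in either. In the knockout comparison DESeq2 called 2 of 8 against 1.33% of all genes, the troponin gene Tnnt2 (log2 fold change -0.37, adjusted p 0.0100), the 1 marker of 8 whose genotypes did not overlap (5.71% of all genes), and the cardiac actin gene Actc1 (0.46, adjusted p 0.0287), which was higher. Between the AAV groups 1 of 8 markers, Actc1 (0.17, SE 0.06 in edgeR), had no overlap, below the 18.4% of all genes. The part of cardiomyocyte RNA in the values of Aqp4 and of the dystrophin list was not tested. Replicate 3 labelled Atf3+/+FS6KD had the lowest sum of its group, 70621 CPM.

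The estimates of the 6 macrophage markers leaned the same way as those of the fibroblast markers, with none called by edgeR, DESeq2 or limma. Between the genotypes 5 of 6 estimates were above 0 (median 0.26) and 2 of 6 had an unadjusted p below 0.05 against 10.1% of all genes, with overlapping sums of up to 306.0 CPM labelled Atf3+/+FS6KD and 275.5 to 391.1 CPM labelled Atf3-/-FS6KD. Between the AAV groups 5 of 6 were below 0 (median -0.22), 3 of 6 had such a p against 12.7%, and 2 of 6 had no overlap against 18.4%, with sums of 355.5 to 416.8 CPM labelled shCtrl and 317.3 to 373.5 CPM labelled shAtf3. The 6 mural markers had medians of 0.09 and -0.06 in the knockout and the AAV comparison, with none called by edgeR, DESeq2 or limma. Between the genotypes 5 of 6 estimates were above 0, and 1 of 6, Pdgfrb (0.24, SE 0.08), had an unadjusted p below 0.05 against 10.1% of all genes. Acta2 had the estimate below 0, -1.07 (SE 0.49) with overlapping groups, the same sign as Aqp4 there. Between the AAV groups 5 of 6 were below 0 and 0 of 6 had such a p.

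Aqp4 is also abundant in skeletal muscle fibres and in astrocytes. The 9 skeletal muscle markers together were at 2.56 to 4.43 CPM in the libraries labelled Atf3+/+FS6KD and 2.08 to 2.80 CPM in those labelled Atf3-/-FS6KD, where Aqp4 was at 1.03 to 4.55 and 0.535 to 1.08 CPM. The 2 that passed the filter there, the troponin gene Tnni2 (log2 fold change -0.96, SE 0.35, edgeR adjusted p 0.423) and the calcium pump gene Atp2a1 (-0.55, SE 0.30), pointed the same way as Aqp4 without being called. Between the AAV groups the sum was 2.70 to 3.64 CPM labelled shCtrl and 2.72 to 3.05 CPM labelled shAtf3, where Tnni2 had an estimate of -0.17 (SE 0.27), opposite to Aqp4. The 5 glial markers summed to 4.51 to 7.50 CPM labelled Atf3+/+FS6KD and 4.07 to 5.90 CPM labelled Atf3-/-FS6KD, with overlap, and to 5.79 to 5.92 CPM labelled shCtrl and 3.87 to 5.27 CPM labelled shAtf3, without overlap and opposite to Aqp4. Of the 2 tested between the AAV groups, S100b had a log2 fold change of -0.68 (SE 0.20, edgeR adjusted p 0.210) and no overlap; the astrocyte marker Gfap was at 0 to 0.128 CPM over the 14 libraries. The 3 mesothelial markers summed to at most 0.463 CPM in the knockout libraries, to 0 to 0.574 CPM in those labelled shCtrl and to 0.272 to 3.46 CPM in those labelled shAtf3, where replicate 2 alone lay above the range of the libraries labelled shCtrl. The part of these cell types in the Aqp4 values was not tested.

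The genes most like each member were found by Pearson's r over the 14 libraries, on log2 CPM centred on the mean of each experiment, among 13202 genes for Aqp4 and 13201 for each of the others. These values are descriptions, since the libraries share depth and group differences. For Aqp4 they included Dap3 (r 0.907, Spearman's rho 0.802), Lrrc39 (0.895 and 0.811), Sdhc (0.894 and 0.714) and Chpt1 (0.888 and 0.886). Dap3 encodes a mitochondrial ribosomal protein, Sdhc a subunit of respiratory complex II and Chpt1 a choline phosphotransferase. With the 2 libraries farthest from the Aqp4 median left out, r for the 5 genes most like it was 0.816 to 0.897, and with group means removed it was 0.671 to 0.880.

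For Aqp8 the most like genes were Ints3 (r 0.925, rho 0.837), Arih1 (0.890 and 0.837), Numb (0.885 and 0.741), Rangap1 (0.883 and 0.886) and 1700037H04Rik (r 0.869). Numb is an inhibitor of Notch signalling and Ints3 a subunit of the Integrator complex. For Aqp7 they were Afdn (0.897 and 0.851), Tab1 (0.886 and 0.793), Zfp512b (0.880 and 0.815), Armc9 (0.869 and 0.618) and Zfp229 (0.854 and 0.842). For Aqp1 they were Zfp967 and Zfp966 (0.871 and 0.855 each), Phtf2 (0.870 and 0.833), Depdc5 (0.869 and 0.895) and Ccng1 (0.857 and 0.877), and the 2 zinc finger genes had nearly the same values and may share reads. No gene stood in the lists of more than 1 member, and no aquaporin stood in any of them.

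As Atf3 binds the CRE and AP-1 elements, the RefSeq promoters of GRCm38.p6 (250 bases before to 50 after the start) were searched on both strands. Neither TGACGTCA nor TGACTCA, which do not contain each other, was found in the promoters of Aqp1, Aqp7 (2 promoters) or Aqp8, and Aqp4 was not searched. Over all 32544 promoters 1.80% held the first and 5.19% the second, so these letters are missing from most windows of this length.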

How the data were processed

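Bulk RNA-seq of 14 female FS6KD mouse hearts was used, one library per heart. RNA had been taken with the RNeasy fibrous kit and made into TruSeq Stranded mRNA libraries; per the submitters' processing notes reads were assigned on GRCm38.p6 with featureCounts 2.0.0. The aligner, the use of strand and the handling of shared reads are not given in the sources used here. The authors deposited 2 tables of counts per gene that are not normalized, here treated as estimated count values since 19.3% to 24.4% of them were not whole. They were rounded before fitting, no column of samples was left out, and depth was 30.1 to 134.9 M counts per library.

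Each experiment was fitted by itself with edgeR 4.0.16 (R 4.3.3; TMM, glmQLFit, glmQLFTest, Benjamini-Hochberg over all genes) on genes above 1 CPM in at least 1 library. Groups follow the sample titles. Alternatives were DESeq2 1.42.0, limma 3.58.1 (limma-trend), other scalings and filters, merged copies of genes, a replicate block, a depth term and leaving out each library. Levels per length are TMM-scaled CPM over summed exon length (GENCODE vM21). Likeness used log2 CPM with a prior count of 2. Intervals of counts are exact Poisson at 95%; those of fold changes are the estimate with 1.96 standard errors either side.

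The members and all gene lists were chosen with earlier results of these data known. Genes named are the 4 members, all other aquaporins listed, of each partner list the 3 genes with the smallest p in each comparison, the 5 genes most like each member, and the 3 marker genes with the smallest p where a list moved with a member. Atf3, Myl7, Sln, Adipoq, Bmp10, Myl4, Nppa, Tnnt2, Actc1, Esam, Egfl7, Vwf, Cfd, Tnni2, Atp2a1, S100b, Gfap, Pdgfrb, Acta2 and A830021F12Rik are named beside them as checks or neighbours, chosen after their values were seen. Of the genes this rule names, 2 are not reported here. The members were part of the AAV fit over all genes, but no p of theirs is given there, since that comparison chose them. P-values set each group difference against the spread between these hearts, as modelled by the tool named.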

Additional observations from a re-analysis of the deposited data

How the results depend on the processing

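In the knockout comparison Aqp4, Aqp8 and Aqp1 kept their direction under all 19 alternatives each. Aqp4 passed the adjusted threshold only in DESeq2 (log2 fold change -1.69, adjusted p 0.00991), which made the number of members called 1 in place of 0; over all alternatives its adjusted p ran from 0.00991 to 0.718. With single libraries left out, the change of Aqp4 was -1.98 to -1.39, of Aqp8 0.56 to 1.23, of Aqp1 -0.18 to -0.10 and of Aqp7 -0.21 to 0.14. Aqp7, near 0 throughout, turned positive with library size alone (0.04), in replicates 3 and 4 alone (0.14), without replicate 1 (0.11) or replicate 4 (0.04) labelled Atf3+/+FS6KD and without replicate 2 labelled Atf3-/-FS6KD (0.14). Library size alone moved the median of all genes to 0.062 in the knockout and -0.043 in the AAV comparison. In the AAV comparison Aqp4 stayed between 1.14 and 1.28, Aqp1 between 0.05 and 0.34 and Aqp7 between -0.33 and -0.12 under all 14 alternatives each; Aqp8 ran from -0.33 to 0.32. No other aquaporin was called under any alternative. Some lists without a call in the main AAV fit gained calls under other settings. These were the atrial markers and the glycerol and triacylglycerol list under 2 of the 14 alternatives, and the adipocyte markers and the dystrophin list under 1. The number of genes called in all depended on the tool and the libraries: 0 by edgeR and 208 by DESeq2 in the knockout comparison, and 82 by edgeR and 308 by DESeq2 in the AAV comparison. In edgeR, leaving out single AAV libraries gave 1 (without replicate 2 labelled shAtf3) to 285 (without replicate 3 labelled shCtrl). Leaving out single knockout libraries gave 0 to 15, the latter without replicate 1 labelled Atf3+/+FS6KD or without replicate 3 labelled Atf3-/-FS6KD. Knockout replicates 1 and 2 alone gave 0, and replicates 3 and 4 alone gave 8.

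Samples of the same number deviated together with correlations of 0.006 to 0.145 in the knockout and 0 to 0.151 in the AAV experiment, so not every pair passed 0.1 and the numbers were not taken as pairs; in the knockout experiment the same numbers also share a depth class, replicates 1 and 2 shallower than 3 and 4. With the replicate block the knockout changes were -1.55 for Aqp4, 0.95 for Aqp8, -0.15 for Aqp1 and -0.02 for Aqp7, none of them called, and 0 knockout and 20 AAV genes were called in all, with 1 of 8 fibroblast markers in place of 4. Per kb of the longest transcript Aqp4 was at 0.330 in place of 0.268 in the libraries labelled shCtrl. Of the 5 genes most like each member, 0 to 2 stayed among the 5 without the 2 farthest libraries and 0 to 3 with group means removed. The 7 aquaporins that did not pass the filter, which is set in CPM, had 20.5 counts or fewer per library, and their changes were not tested.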
